A study of Rattus norvegicus with 12 samples.

Results

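The genes described here encode proteins of the cardiac Z-disc and of the stretch response that starts from it: Ttn, Actn2, Ldb3, Myoz2, Tcap, Csrp3, Nexn, Myot, Des, and Ankrd1. They were taken by gene name from the transcript tables, together with every transcript row that carries one of these names. Of the 10 names, 8 had a row, and they had 15 of the 18752 transcript rows (17301 gene names) in all. Ttn and Tcap were not analysed here. A total of 7 genes had a value above 0 in all 12 samples and were tested, among 10950 tested genes, whereas Myot did not pass this filter.

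RNA was sequenced from adult rat ventricular myocytes (ARVMs), the contractile cells of the ventricle, isolated from hearts of Sprague Dawley rats. The 6 Ad-h-NR4A2 samples had been transduced with an adenovirus carrying the human NR4A2 cDNA under the CMV promoter, which drives high expression in most cell types. The 6 control samples, Ad-GFP, had received an eGFP adenovirus. Both groups were transduced at 50 m.o.i., were kept for 48 h, and shared a culture medium with insulin-transferrin-selenium and BDM (2,3-butanedione monoxime), which inhibits myosin and thereby contraction. Samples carry the numbers 24 to 29 in each group, and the cells of the separate experiments came from different animals. The comparison asks how more NR4A2, an orphan nuclear receptor induced by β-adrenergic stimulation, alters transcript levels in these cells.

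The Z-disc is the border between neighboring sarcomeres, where α-actinin cross-links the barbed ends of actin filaments and anchors titin. Linker proteins such as Cypher, calsarcin, and nexilin bind α-actinin or actin there, and desmin filaments tie the discs of adjacent myofibrils to each other. Other proteins of this region, among them muscle LIM protein and the cardiac ankyrin repeat protein, also move to the nucleus and are known from hearts under mechanical load.

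For 5 of the 7 tested genes, RefSeq gives a window around the transcription start, of 300 bases, from 250 bases before to 50 bases after the start (build GRCr8, other than the Rn5 build of the expression files). They were searched on both strands for the NBRE, the monomer site of NR4A receptors (AAAGGTCA), and for the M-CAT site of muscle genes (CATTCC); no matches of the motifs overlapped. Windows of Csrp3 and Ankrd1 were not analysed here. The windows of Nexn and Des, which fell, and of Actn2 and Ldb3, which rose, are shown. The window of Myoz2, which did not pass the test of transcript levels below, held no match and is not printed. Windows are written from 5′ to 3′ along the gene, with a matched motif in capitals.
Nexn, chr2:243878103-243878402, minus strand: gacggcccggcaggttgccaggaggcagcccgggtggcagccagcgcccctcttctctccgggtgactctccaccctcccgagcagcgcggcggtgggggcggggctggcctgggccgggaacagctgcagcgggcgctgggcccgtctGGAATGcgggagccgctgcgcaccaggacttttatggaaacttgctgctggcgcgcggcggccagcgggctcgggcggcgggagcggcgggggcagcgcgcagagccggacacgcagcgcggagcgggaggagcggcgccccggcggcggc
Des, chr9:84299376-84299675, plus strand: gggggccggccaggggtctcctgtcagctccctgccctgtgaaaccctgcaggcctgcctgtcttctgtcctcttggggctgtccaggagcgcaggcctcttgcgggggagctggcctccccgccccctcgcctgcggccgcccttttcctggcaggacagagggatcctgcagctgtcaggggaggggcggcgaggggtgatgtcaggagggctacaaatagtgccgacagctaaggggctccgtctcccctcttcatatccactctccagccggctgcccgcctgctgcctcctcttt
Actn2, chr17:62834805-62835104, plus strand: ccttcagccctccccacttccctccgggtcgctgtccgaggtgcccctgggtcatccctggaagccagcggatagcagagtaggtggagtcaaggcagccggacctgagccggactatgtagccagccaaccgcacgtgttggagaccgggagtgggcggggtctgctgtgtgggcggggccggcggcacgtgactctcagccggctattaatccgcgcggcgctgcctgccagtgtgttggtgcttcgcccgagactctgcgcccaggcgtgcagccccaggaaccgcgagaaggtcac
Ldb3, chr16:9924630-9924929, minus strand: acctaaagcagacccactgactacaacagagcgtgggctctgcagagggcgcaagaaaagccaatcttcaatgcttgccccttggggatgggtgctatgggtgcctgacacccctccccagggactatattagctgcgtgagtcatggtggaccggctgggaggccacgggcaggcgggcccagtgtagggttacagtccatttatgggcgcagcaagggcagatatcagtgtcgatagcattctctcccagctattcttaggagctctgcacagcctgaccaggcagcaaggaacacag
The only match was an M-CAT on the reverse strand of the Nexn window, starting 101 bases before the start and read there as GGAATG. An M-CAT was thus in 1 of the 5 windows, against 14.2% of 33469 rat windows of this length. The NBRE letters were in 0 of the 5 and in 1.43% of all windows. A match describes letters in a window and shows no binding.

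The transduced gene was first compared with the labels, and its level was high in all samples labeled Ad-h-NR4A2 and in no other. The Nr4a2 row held 0.884 ± 0.309 FPKM (mapped fragments normalized to transcript length and to the depth of the sample) in Ad-GFP and 524 ± 70.3 in Ad-h-NR4A2 (SD, n = 6 each). Reads of the human cDNA and of the rat gene cannot be told apart in this row. The depth implied by the smallest values was 18700000 to 28100000 fragments per sample. Cardiomyocyte markers were abundant, with a summed level of 18767 to 24264 FPKM in Ad-GFP and 16434 to 20122 in Ad-h-NR4A2, and 5 of the 7 passed limma's adjusted p, all lower (21.7% of all genes), with a median log2 fold change of −0.56 over the list. Of these, Myh7, Pln, and Ryr2 fell by at least 1.5-fold (3 of 7, against 7.24% of all genes), and Myh6 and Tnnt2 had log2 fold changes of −0.56 and −0.26. In such bulk samples, fewer cells of a type and less RNA per cell cannot be told apart. Summed levels of the 6 fibroblast markers were 9.04 to 30.1 and 5.80 to 26.4 FPKM, with Col1a2 at 0 in all samples. Of the 5 tested, 1 was called, Col3a1, which was lower (20.0%, against 15.2% of all genes called). Under the replicate block, 3 of the 5 tested fibroblast markers passed, all lower. The share of all genes that pass with the block is not given here, so this count cannot be set against a background. Of these markers, 2 were called with the block (Col3a1 and Col1a1), as were 1825 of the 10950 tested genes. Summed levels of the 4 endothelial markers were 5.95 to 19.6 and 4.91 to 18.6, with 0 of 4 past limma's adjusted p and 0 below 0.05 without adjustment (under the replicate block, the adjusted p of Kdr was 0.00409). Those of the 4 smooth muscle markers were 7.07 to 20.3 and 6.86 to 16.5. Of the 3 tested, 1 was called, Myh11, which was lower (33.3%, against 15.2% of all genes called). The 4 macrophage markers summed to 5.95 to 17.2 FPKM in Ad-GFP and to 37.0 to 44.2 in Ad-h-NR4A2, of which Csf1r rose from 10.1 ± 3.87 to 40.2 ± 2.35, while Cd68 was at 0.463 and 0.482 FPKM and Cd163 and Ptprc were near 0.02 FPKM in both groups. The part of these cell types in the differences below was not tested.

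NR4A2 overexpression did not move the Z-disc genes in one direction. Csrp3 rose about 3-fold and Ankrd1 rose 1.73-fold, Nexn fell to 0.549 of its control level, and Des, Actn2, and Ldb3 changed by less than 1.5-fold. Myoz2 did not pass the test. A gene was called when the adjusted p of limma was below 0.05 and the group means differed by at least 1.5-fold, which held for 3 of 7 genes (42.9%) against 15.2% of all genes tested. Of these, 2 were higher (background 7.94%) and 1 was lower (background 7.24%). Without the limit on the fold, 6 of 7 passed, against 40.9% of all genes, 4 of them higher (19.3% of all genes) and 2 lower (21.7% of all genes). The values of the groups did not overlap for 3 of 7 genes, as was the case for 21.5% of all genes. The median log2 fold change was 0.22 over the 7 genes and −0.02 over all genes. Its absolute size had a median of 0.29 over the 7 genes and 0.20 over all genes.

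**Figure D1:**
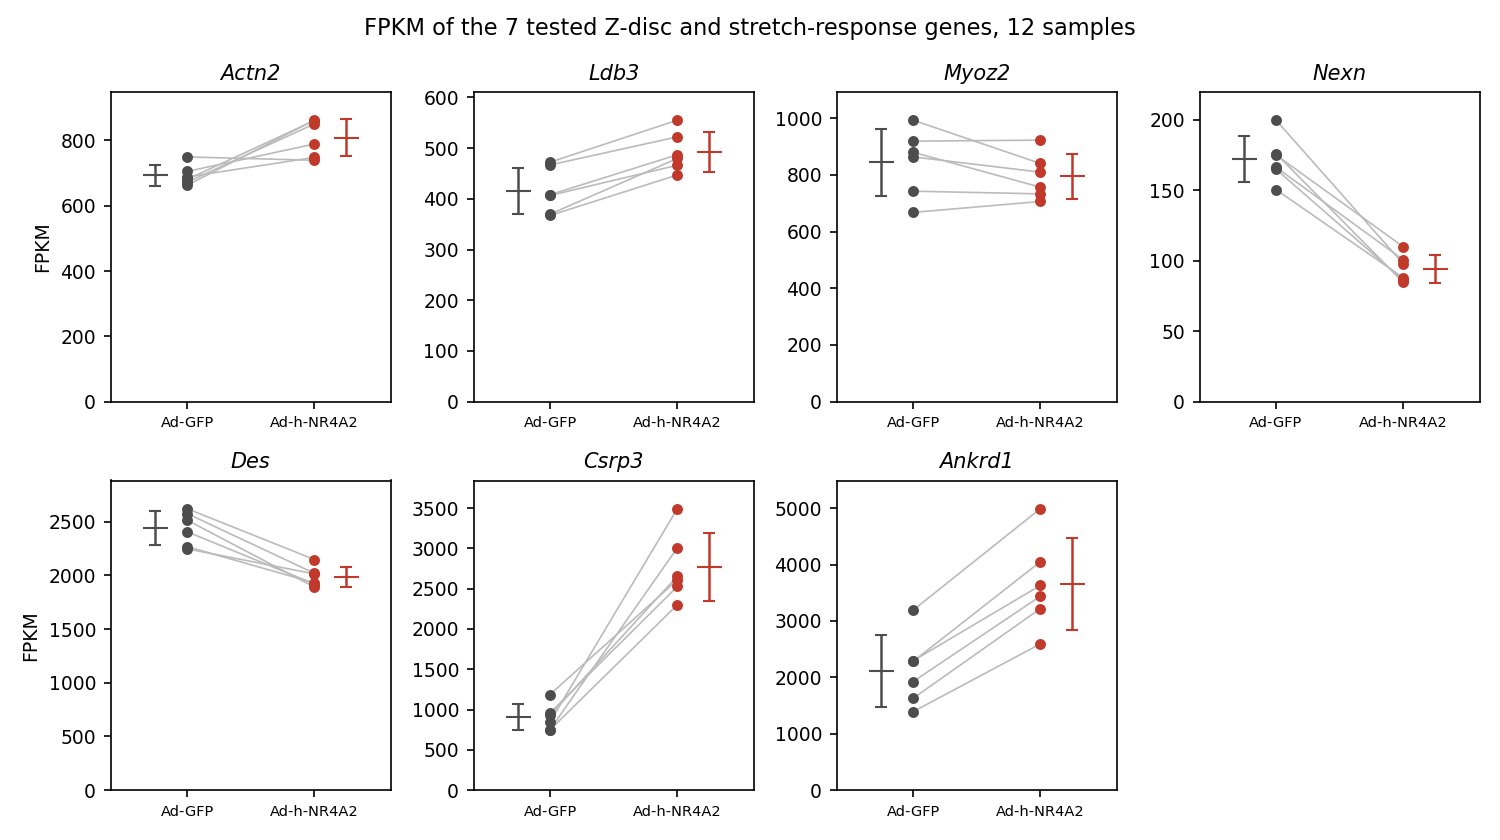
FPKM (vertical axes, each from 0) of the 7 tested genes in Ad-GFP (gray) and Ad-h-NR4A2 (red) samples; points are samples, lines join samples with the same number, and bars give mean ± SD of 6 samples. The groups are apart for Csrp3, Nexn, and Des and overlap for Actn2, Ldb3, Myoz2, and Ankrd1.

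Actn2, which encodes sarcomeric α-actinin, the main cross-linker of the Z-disc, rose slightly. Its level in Ad-GFP had a lowest value of 663, a median of 684, and a highest value of 750 FPKM. In Ad-h-NR4A2 these were 739, 820, and 862 FPKM. The ranges overlapped, and Actn2 was higher with NR4A2 in 5 of the 6 pairs of samples with the same number. Means were 693 ± 31.2 and 808 ± 56.9 FPKM (SD, n = 6 each), a log2 fold change of 0.22 (SE 0.051) with an adjusted p of 0.00344 by limma. The row is NM_001170325, on chromosome 17 from 68050946 to 68143522 (Rn5, as are all positions of transcripts given here).

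Ldb3 encodes Cypher, a PDZ-LIM protein that binds α-actinin and is made in several splice forms. The row with the highest level, NM_001277158, had a lowest, median, and highest value of 367, 407, and 472 FPKM in Ad-GFP. With NR4A2 the corresponding values were 447, 483, and 555 FPKM. The ranges overlapped, but the NR4A2 sample was the higher one in 6 of 6 pairs. This was a log2 fold change of 0.25 with an SE of 0.073 and an adjusted p of 0.0145 by limma, and after quantile normalization it was 0.20 with an adjusted p of 0.0663, past the threshold no longer.

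The 5 transcript rows of Ldb3 had log2 fold changes from 0.16 to 1.06. All share the same placement, chromosome 16 from 8493025 to 10843082, which spans 2350058 bases in the files against 7706 to 92577 for the other tested genes. NM_001277159 rose from 36.0 ± 12.8 to 72.6 ± 17.4 FPKM (SD, n = 6 each), a log2 fold change of 1.06 with an adjusted p of 0.00346 by limma over 11667 transcript rows. NM_001110490 rose from 113 ± 25.2 to 179 ± 51.0 FPKM (log2 fold change 0.63, adjusted p = 0.0197 by limma). Both were higher with NR4A2 in 6 of 6 pairs, with overlapping ranges. The long row NM_001277165, of 4847 nucleotides, went from 101 ± 9.83 to 114 ± 15.6 FPKM with an adjusted p of 0.167 by limma, or 0.00757 with the sample number as a block. The other long row, NM_001277166, lay below 0.6 FPKM in all samples (adjusted p = 0.0722 by limma).

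As shares of the summed Ldb3 level, NM_001277165 went from 15.3% ± 0.905 to 13.3% ± 0.811 (SD, n = 6 each), lower in 6 of 6 pairs, with an exact permutation p of 0.00433 and 0.0260 after adjustment over 6 shares. The share of NM_001277159 rose from 5.40% ± 1.84 to 8.45% ± 1.74, with an exact permutation p of 0.0130 and 0.0390 after adjustment. Taken by pairs, it was higher in 5 of 6, with an exact sign-flip p of 0.0625. The major row NM_001277158 made up 62.4% ± 1.98 and 57.7% ± 3.66 of the sum, with an exact permutation p of 0.0325 and 0.0649 after adjustment. By pairs its share was lower in 6 of 6, with an exact sign-flip p of 0.0313, the smallest that 6 pairs allow. For NM_001110490 the share was 17.0% ± 2.64 and 20.5% ± 3.55, with an exact permutation p of 0.0866 and 0.130 after adjustment. By pairs this share was higher in 6 of 6, with the same sign-flip p of 0.0313. The sign-flip p-values were not adjusted over the 6 shares. The rows overlap at one locus, and Cufflinks divided the fragments among them by estimation. Summed over its rows, Ldb3 had 666 ± 72.7 FPKM in Ad-GFP and 858 ± 106 in Ad-h-NR4A2, a log2 fold change of 0.36 with an adjusted p of 0.00422 by limma.

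**Figure D2:**
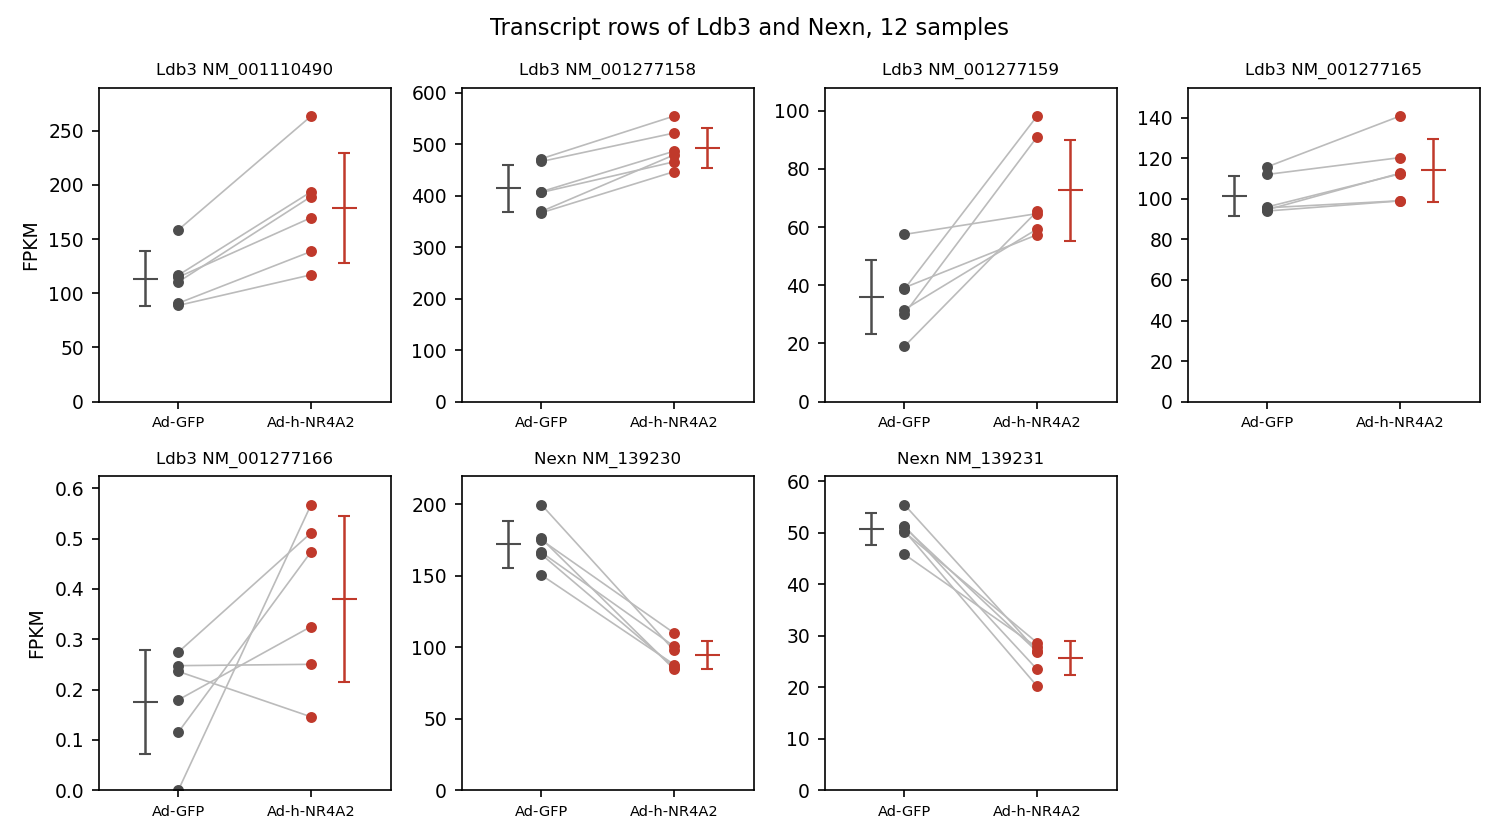
FPKM (vertical axes, each from 0) of the 5 transcript rows of Ldb3 and both rows of Nexn in Ad-GFP (gray) and Ad-h-NR4A2 (red) samples; points are samples, lines join samples with the same number, and bars give mean ± SD of 6 samples. Both Nexn rows fall in 6 of 6 pairs, and among the Ldb3 rows NM_001277159 shows the largest ratio of those above 1 FPKM.

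Over all transcript rows of the Z-disc and stretch genes, 6 of the 12 tested were called, against 14.7% of all rows. They comprised the single rows of Csrp3 and Ankrd1, both rows of Nexn, and 2 rows of Ldb3.

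Myoz2, which encodes calsarcin-1, a partner of α-actinin and of the phosphatase calcineurin, did not pass the test. Its lowest, median, and highest values were 668, 872, and 993 FPKM in Ad-GFP and 706, 783, and 923 FPKM in Ad-h-NR4A2. The range with NR4A2 lay inside that of the controls, and Myoz2 was lower in 4 of 6 pairs. The log2 fold change of −0.08 (SE 0.094) had a 95% confidence interval from −0.28 to 0.12 and an adjusted p of 0.530 by limma. The row, NM_001106469, lies on chromosome 2 from 246542267 to 246568964.

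Nexn, encoding nexilin, an actin-binding Z-disc protein, fell the most. The row NM_139230 (chromosome 2, 276130293 to 276151480) had a lowest, median, and highest value of 150, 171, and 200 FPKM in Ad-GFP. In Ad-h-NR4A2 the values were 84.5, 92.7, and 109.8 FPKM. All NR4A2 samples were below all controls, and the ratio within pairs was 0.480 to 0.628. Means were 172 ± 16.4 and 94.4 ± 9.96 FPKM (SD, n = 6 each), with a log2 fold change of −0.87 (SE 0.076) and an adjusted p of 1.13e-06 by limma. The shorter row NM_139231 fell as well, from 50.7 ± 3.08 to 25.7 ± 3.21 FPKM (log2 fold change −0.99, adjusted p = 2.17e-06 by limma). Its share of summed Nexn was 22.8% ± 0.738 and 21.5% ± 3.14, with an exact permutation p of 0.424. The Nexn window printed above is the one that holds the M-CAT letters.

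Myot, encoding myotilin, another α-actinin partner, was at the limit of detection. Its single RefSeq transcript is listed at 3 placements in the rat genome, of which one was at 0 in all 12 samples, one at 0 in 9, and one at 0 in 4. The highest of these values was 0.0666 FPKM, in an Ad-GFP sample. No fold change is given for it.

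Des encodes desmin, the muscle intermediate filament, and had the highest mean level of the genes in Ad-GFP. Its lowest, median, and highest values were 2248, 2462, and 2623 FPKM in Ad-GFP and 1892, 1973, and 2149 FPKM in Ad-h-NR4A2. All samples with NR4A2 were below all controls, although the decline was modest, with ratios within pairs from 0.752 to 0.896. Means of 2440 ± 158 and 1988 ± 94.5 FPKM (SD, n = 6 each) gave a log2 fold change of −0.29 (SE 0.052), with an adjusted p of 5.26e-04 by limma. The row is NM_022531, on chromosome 9 from 82325843 to 82333548.

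Csrp3 encodes muscle LIM protein, which binds α-actinin at the Z-disc, also enters the nucleus as a cofactor of myogenic transcription factors, and is tied to the sensing of stretch. It showed the largest change of the genes studied here. In Ad-GFP the lowest, median, and highest values were 749, 889, and 1187 FPKM. In Ad-h-NR4A2 they were 2301, 2632, and 3493 FPKM. Every NR4A2 sample was above every control. The ratio within pairs was 2.20 to 4.11, smallest for sample 29, whose control was the highest of its group. Means of 904 ± 163 and 2765 ± 423 FPKM (SD, n = 6 each) gave a log2 fold change of 1.62 (SE 0.12) with an adjusted p of 2.59e-07 by limma. The exact permutation p of 0.00216 is the smallest that 6 against 6 samples can give. The row NM_057144, on chromosome 1 from 105206459 to 105217109 and 838 nucleotides long, rested on 10783 to 22420 fragments per control sample and 39431 to 64939 per NR4A2 sample. By absolute log2 fold change Csrp3 ranked 254 among the 10950 genes.

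Ankrd1 encodes the cardiac ankyrin repeat protein, which binds titin in the I-band, acts in the nucleus as a transcriptional cofactor, and is a common readout of stretch and load. Control samples had a lowest, median, and highest value of 1391, 2103, and 3190 FPKM. With NR4A2 the values were 2594, 3535, and 4991 FPKM. The samples differed widely within both groups, with sample 24 lowest and sample 29 highest in each, and the ranges overlapped only in that Ad-GFP sample 29 was above Ad-h-NR4A2 sample 24. Within pairs the ratio was 1.56 to 1.98, higher with NR4A2 in 6 of 6. Means were 2118 ± 635 and 3654 ± 813 FPKM (SD, n = 6 each), a log2 fold change of 0.81 (SE 0.19) with an adjusted p of 0.00389 by limma. The row is NM_013220, on chromosome 1 from 262038140 to 262046691.

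The order of levels, which FPKM allows to be read per length, differed between groups. In Ad-GFP it ran Des, Ankrd1, Csrp3, Myoz2, Actn2, Ldb3, and Nexn from high to low. The ranges of neighbors overlapped for Des and Ankrd1, for Csrp3 and Myoz2, and for Myoz2 and Actn2. Within single Ad-GFP samples, Des was above Ankrd1 and Csrp3 above Myoz2 in 5 of 6, and Myoz2 above Actn2 in 6 of 6. In Ad-h-NR4A2 the order was Ankrd1, Csrp3, Des, Actn2, Myoz2, Ldb3, and Nexn, with overlap between Ankrd1 and Csrp3 and between Actn2 and Myoz2. Ankrd1 was above Csrp3 in 5 of 6 of these samples, and Actn2 above Myoz2 in 4 of 6. Ldb3 and Nexn stand in both orders by their highest row alone. Summed over its rows, Ldb3 had 582 to 777 FPKM in Ad-GFP, overlapping Actn2 and Myoz2. In Ad-h-NR4A2 its summed mean of 858 FPKM was above those of Actn2 (808) and Myoz2 (795). Csrp3 moved from level rank 136 to 29 among all tested genes and Nexn from 614 to 1122.

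Ratios between these genes within each sample, which do not depend on its scaling, are given as a description, since the pairs of genes were chosen after their levels were known. Csrp3 over Des was 0.329 to 0.452 in Ad-GFP and 1.14 to 1.73 in Ad-h-NR4A2, so that muscle LIM protein mRNA went from below to above desmin mRNA in every sample. Csrp3 over Myoz2 was 0.923 to 1.19 and 3.10 to 4.26, and Nexn over Actn2 was 0.221 to 0.283 and 0.101 to 0.136. The groups were apart for these ratios. Ankrd1 over Des was 0.613 to 1.22 and 1.34 to 2.32, also without overlap, although Ankrd1 alone overlapped. Csrp3 over Ankrd1 was 0.372 to 0.541 and 0.523 to 1.16, with a narrow overlap.

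**Figure D3:**
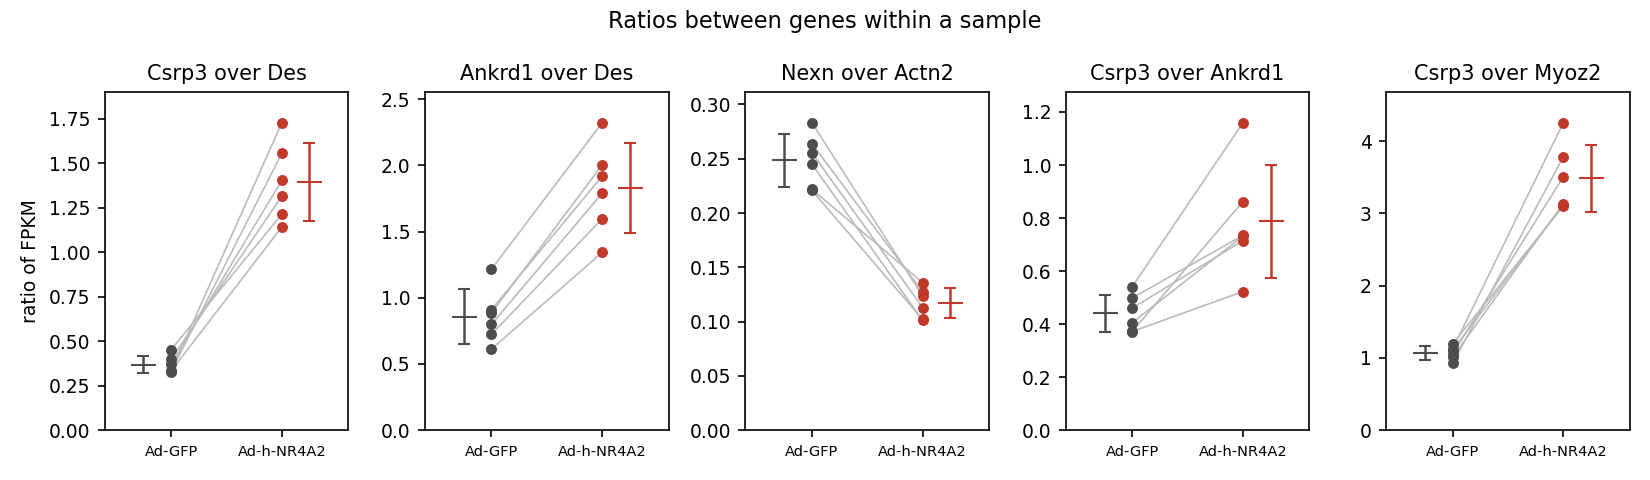
Ratio of FPKM (vertical axes, no unit, each from 0) for 5 pairs of genes within each Ad-GFP (gray) and Ad-h-NR4A2 (red) sample; points are samples, lines join samples with the same number, and bars give mean ± SD of 6 samples. The groups are apart in all panels but Csrp3 over Ankrd1, where 1 NR4A2 sample lies at 0.523.

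Among genes with a mean of at least 1 FPKM, the profile over the 12 samples closest to that of Csrp3 was that of Chmp4c, followed by Qser1 and Fam46a. Likeness was the root mean square difference of log2 values centered per gene, which was 0.211, 0.217, and 0.217. Their log2 fold changes were 1.62, 1.73, and 1.44. The centered values still hold the group difference, so fold changes near that of Csrp3 follow from the way these genes were chosen.

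Of other Z-disc proteins, 21 of 26 listed genes were tested, and 6 were called (28.6%, against 15.2% of all genes), 2 higher and 4 lower, with a median log2 fold change of −0.08. Lmcd1, a LIM domain cofactor, rose from 49.2 ± 13.7 to 152 ± 30.8 FPKM (log2 fold change 1.65), close to the fold of Csrp3. Nebl, encoding nebulette, which reaches along actin from the Z-disc, rose from 127 ± 28 to 207 ± 36.7 FPKM (0.71). Flnc, encoding the actin cross-linker filamin C, fell from 203 ± 29 to 92.7 ± 24 FPKM (−1.16). The other declines were in genes for further actin- or α-actinin-binding proteins, with log2 fold changes of −0.87 for Synpo2l, −0.71 for Xirp2, and −0.66 for Pdlim1. With both of its rows summed, Synpo2l had a log2 fold change of −1.60. Below the fold limit, 8 more passed the adjusted p, so that 14 did in all (5 higher and 9 lower), or 66.7% against 40.9% of all genes. Myoz3, Palld, Neb, and Xirp1 were not analysed here, and Myoz1 was not tested.

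Of 15 tested genes for titin-bound and M-band proteins, 5 were called (33.3%, against 15.2% of all genes), 2 higher and 3 lower, and 8 passed the adjusted p (3 higher and 5 lower, or 53.3% against 40.9% of all genes), with a median log2 fold change of −0.13. Fhl1, a LIM protein of the titin spring region, rose from 96.2 ± 36.1 to 1587 ± 260 FPKM in its highest row (log2 fold change 4.10). With its 5 rows summed, the log2 fold change of Fhl1 was 3.39. Smyd1, a muscle methyltransferase needed for sarcomere assembly, rose from 102 ± 11.1 to 311 ± 24.6 FPKM (1.61). Ankrd23, a relative of Ankrd1, fell from 77.2 ± 27.1 to 31.9 ± 11.9 FPKM (−1.27). The genes of the muscle ubiquitin ligases Trim63 and Trim55 fell as well, with log2 fold changes of −0.80 and −0.65.

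Among 6 tested genes listed as intermediate filament partners, 1 was called (16.7%, near the background of 15.2%), with a median log2 fold change of −0.41. The adjusted p was passed by 2 (33.3%, against 40.9% of all genes), both lower (21.7% of all genes). These were Sync and Plec (log2 fold change of Plec −0.46, adjusted p = 0.00945 by limma). Sync, encoding the desmin-binding protein syncoilin, fell from 20.1 ± 1.51 to 10.7 ± 2.45 FPKM (log2 fold change −0.93). With the sample number as a block, 2 were called, the other being Krt8 (log2 fold change −0.62, adjusted p = 0.303 by limma, or 0.0235 with the block). Krt8 was low, at 1.12 ± 0.582 FPKM in Ad-GFP and 0.687 ± 0.449 in Ad-h-NR4A2. Of all 10950 tested genes, 1825 were called with the block. The block also gave 4 past the adjusted p, all lower, for which no share of all genes is given here. Among them was Synm, which encodes the filament protein synemin (log2 fold change −0.35, adjusted p = 0.412 by limma, or 5.11e-04 with the block). Of 9 transcripts known to be induced by stretch, 4 were called (44.4%, against 15.2% of all genes), 3 higher and 1 lower (7.94% and 7.24% of all genes), with a median log2 fold change of −0.09. Cyr61, encoding a matricellular protein, rose from 8.64 ± 1.54 to 135 ± 18.5 FPKM (3.95), and Hbegf and Myc, encoding a growth factor and a transcription factor, rose with log2 fold changes of 1.04 and 0.77. Nppb, encoding brain natriuretic peptide, fell from 300 ± 93.0 to 109 ± 23.4 FPKM (−1.43). Nppa, Acta1, Ctgf, Egr1, and Fos did not pass, although with the sample number as a block the adjusted p was 5.10e-05 for Ctgf (log2 fold change −1.08), 0.00298 for Nppa, and 0.0449 for Acta1. Ankrd1 and Nppb, both common readouts of load, thus moved in opposite directions.

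**Figure D4:**
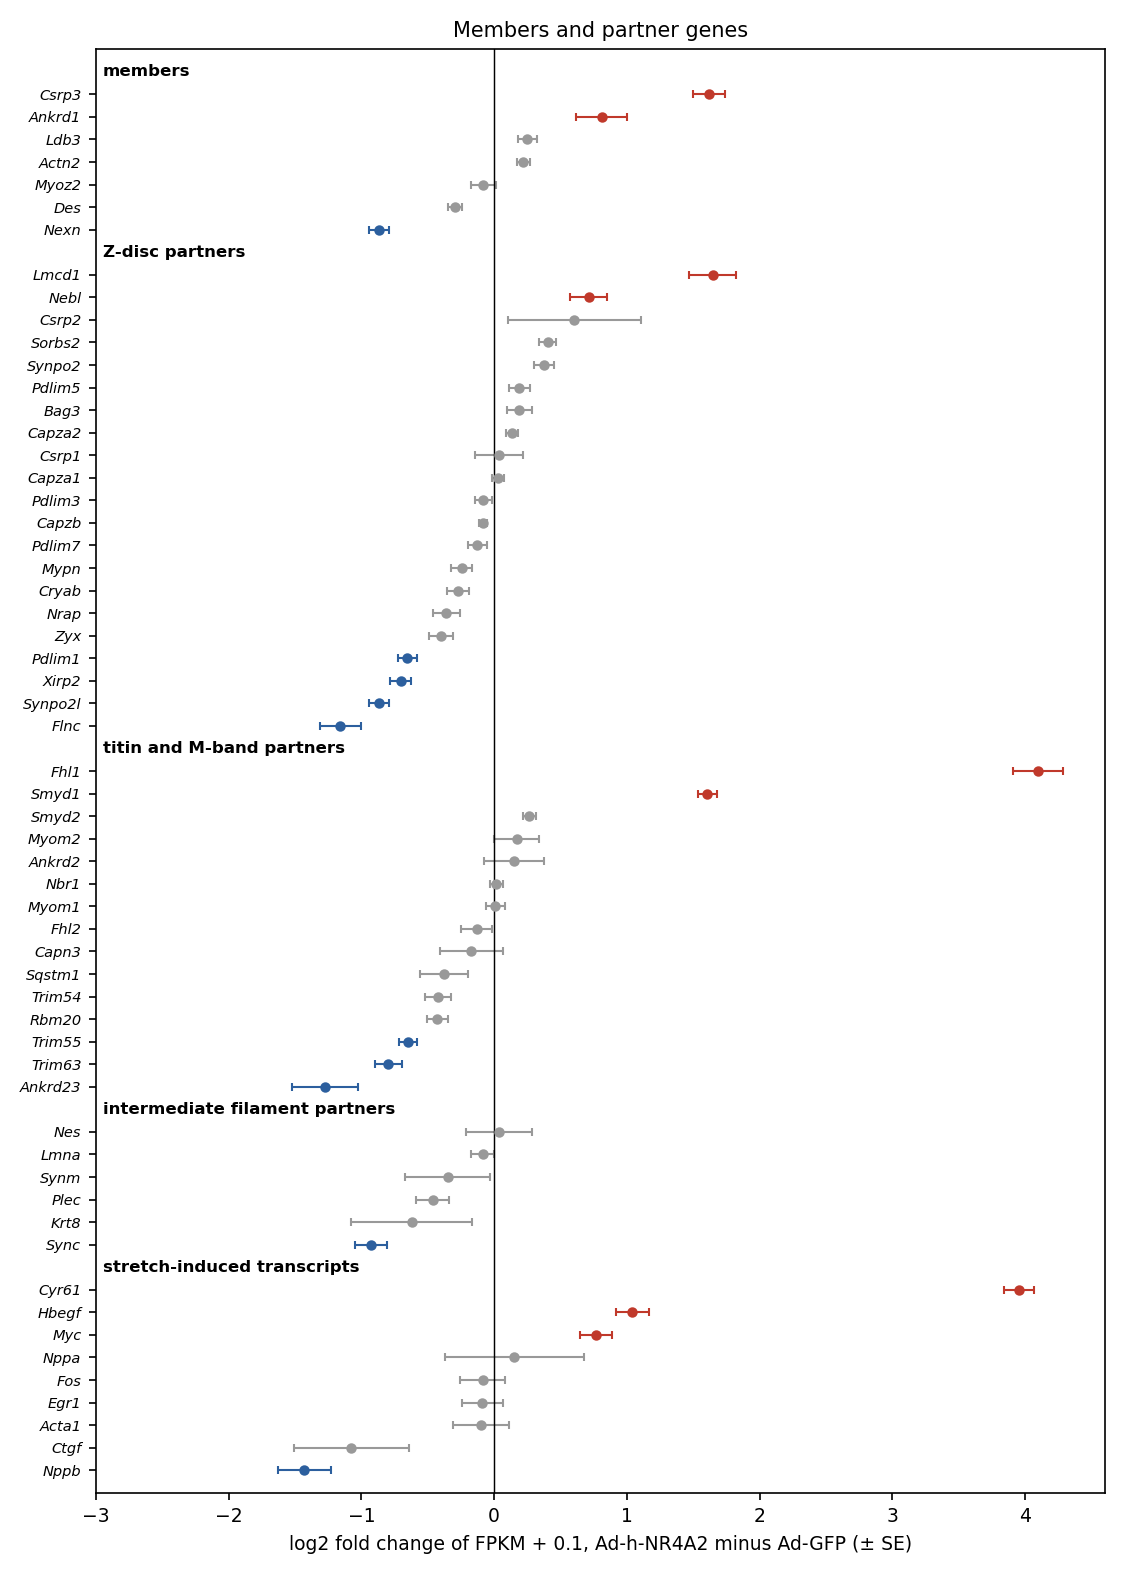
Log2 fold change of FPKM + 0.1, Ad-h-NR4A2 minus Ad-GFP (horizontal axis; 6 samples per group), with bars of ± SE, for the 7 tested Z-disc and stretch genes (headed members) and the tested genes of the 4 partner lists; red and blue points are genes called higher and lower at 1.5-fold, gray points were not called. Called genes lie on both sides of 0 in every list but the intermediate filament partners, where the 1 called gene is lower.

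Of the tested close relatives of these genes, Ankrd23 and Mypn passed the adjusted p, both lower, whereas Csrp1, Csrp2, and Ankrd2 did not. Of all genes, 40.9% passed it, and 21.7% of all genes passed it as lower. Csrp1 had a log2 fold change of 0.04 (adjusted p = 0.888 by limma), which turned negative, from −0.0186 to −0.0523, when any of 4 samples was left out (Ad-GFP 26 or 29, or Ad-h-NR4A2 24 or 25). Csrp2 stood at 9.30 ± 5.63 and 14.0 ± 8.57 FPKM, with a log2 fold change of 0.60 and an adjusted p of 0.366 by limma, or 8.02e-04 with the sample number as a block. Of the Ankrd1 relatives, Ankrd23 fell as given above, and Ankrd2 was low, at 0.947 ± 0.104 and 1.12 ± 0.388 FPKM (adjusted p = 0.632 by limma). Without Ad-h-NR4A2 sample 24, the adjusted p of Ankrd2 was 0.0291 and its log2 fold change 0.37. Mypn, encoding the myotilin relative myopalladin, was slightly lower, with a log2 fold change of −0.25 (adjusted p = 0.0217 by limma). Myoz1 stayed below 0.1 FPKM in all samples. The differences between Csrp3 or Ankrd1 and their relatives were not tested.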

How the data were processed

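Poly(A) RNA of 12 ARVM samples, 6 per group by the labels, was sequenced in a single pooled run from stranded libraries. Per the labels and the methods of the study, the authors aligned the reads with STAR to Rn5 and quantified RefSeq transcripts with Cufflinks, and they deposited FPKM values per transcript. A failed status is given for 8 values. For the 1016 names with more than 1 row, the row of the highest mean FPKM stood for the gene, and summed rows were an alternative. For genes above 0 in all samples, a linear model of log2(FPKM + 0.1) on group, with no block, was computed in R 4.3.3 by limma 3.58.1 (moderated by eBayes, trend on). Its two-sided p-values were adjusted by Benjamini-Hochberg over all genes or all transcript rows. Fold changes are on the log2(FPKM + 0.1) scale, which understates those of low genes. Single values were compared by two-sided exact permutation tests. The procedure was tested on simulated data with independent noise in each sample. These data had no deviation shared by samples of the same number, so the simulation does not cover that feature of the real samples.

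The sample numbers come from the labels. Deviations of same-numbered samples from their group means correlated at 0.347 to 0.623 in all 6 pairs, so the number was used as a block in an alternative fit. What the numbers denote is not given in the labels, so p-values measure only the spread between these samples. FPKM are not counts, and depth was recovered from low values of transcripts of at least 800 nucleotides, of which at least 99.7% gave whole fragments within 0.05. Fragment numbers cover counting error only.

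The genes and lists were chosen with earlier results of these data known. Named were all genes of the set, the transduced gene, the called genes of the lists, close relatives, and the 3 genes most like Csrp3. Rbm20 and the transcript rows of Synpo2l and Fhl1 were added later and are marked. Other list genes and markers are named outside this rule without a mark, among them Krt8, Synm, Plec, Ctgf, Nppa, Acta1, and Kdr. Positions count from 1, and the files start from 0. Alternatives were other pseudocounts (0.01 and 1), no filter or a mean of at least 1 FPKM, TPM scaling, quantile normalization, no trend, a fold limit of 2, and leaving out each sample. Promoter windows are from RefSeq. Tests used SciPy 1.17.1 and NumPy 2.4.6, tables pandas 2.3.3 under Python 3.11.15, and plots Matplotlib 3.10.9.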

Additional observations from a re-analysis of the deposited data

Results flagged for a closer look

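In 72 groups of 6 samples, the gap between an extreme sample and its nearest neighbor was divided by the range of the group, and values above Dixon's 95% critical value were noted. Chance gives about 1 in 20 groups. This held for 5 groups and for 0 groups of the Z-disc and stretch genes themselves. Pdlim1 had a ratio of 0.635 in Ad-GFP, where sample 24 had 92.4 FPKM and the others 108 to 117. It had a ratio of 0.644 in Ad-h-NR4A2, where sample 29 had 82.4 FPKM and the others 61.1 to 68.7. Xirp2 in Ad-GFP had a ratio of 0.825, with sample 24 at 123 FPKM and the others at 154 to 160. Fhl1 in Ad-GFP had a ratio of 0.663, with sample 29 at 165 FPKM and the others at 64.6 to 98.5. Cyr61 in Ad-GFP had a ratio of 0.834, with sample 29 at 11.7 FPKM and the others at 7.56 to 8.25.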

How the results depend on the processing

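With a fold limit of 2 in place of 1.5, by construction fewer genes were called: 803 of all genes, 1 of the Z-disc and stretch genes (Csrp3), 2 Z-disc partners, 3 titin and M-band partners, and 0 intermediate filament partners. With the replicate block, 1825 genes were called in place of 1662, still 3 of the 7 genes, and 2 intermediate filament partners in place of 1. Without a fold limit, the block moved the genes past the adjusted p from 2 to 4 for intermediate filament partners, from 4 to 7 for stretch-induced transcripts, and from 1 to 3 for fibroblast markers (called from 1 to 2); for Z-disc partners it gave 18 in place of 14, and for titin and M-band partners 10 in place of 8. It was added for these counts after the data were seen. The share of all genes past the adjusted p with the block is not given here. The list counts past it with the block therefore have no background beside them. Leaving out each sample in turn gave 1541 to 1769 genes, 3 of 7 called and 6 of 7 past the adjusted p in every case, and 5 to 7 transcript rows called. Csrp1 ranged from −0.0523 to 0.132 and turned negative in 4 of these: −0.0504, −0.0266, −0.0523, and −0.0186 on the log2 scale. Ldb3 passed the adjusted p in 20 of 21 alternatives, all but quantile normalization, and the other tested genes kept their direction and their side of the threshold in 21 of 21. Their ranges were 1.55 to 1.70 for Csrp3, 0.70 to 0.94 for Ankrd1, −0.91 to −0.82 for Nexn, −0.33 to −0.27 for Des, 0.20 to 0.25 for Actn2, and −0.15 to −0.03 for Myoz2, which missed the threshold throughout. Requiring a mean of at least 1 FPKM, with fewer genes tested, left 1252 genes called. Myot and the lowest Ldb3 row were low in all samples, whereas the tested genes with a single row rest on at least 10783 fragments per sample. What depth, or the division of fragments among placements or overlapping rows, adds to these low values was not tested.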

Other observations

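The transcript rows of a pair of partner genes shifted far more than those of Ldb3; they were chosen after their values were seen and are given without a test. Synpo2l, encoding an actin-binding Z-disc protein, had 28.2 ± 2.04 and 15.5 ± 1.83 FPKM in its first row and 22.4 ± 7.86 and 1.06 ± 0.978 FPKM in its second, NM_001305139 (SD, n = 6 each). Its summed level went from 50.7 ± 9.62 to 16.5 ± 2.53 FPKM. Of summed Fhl1, the row NM_001033926 made up 52.0% in Ad-GFP and 84.0% in Ad-h-NR4A2. Summed Fhl1 was 180.4 ± 31.1 and 1884 ± 266 FPKM, a ratio of 10.4, against a ratio of 16.5 for that row alone. The division of fragments between overlapping rows is an estimate of Cufflinks. Rbm20, a splicing regulator of sarcomere transcripts that was also picked after its value was seen, had 29.3 ± 1.91 and 21.9 ± 2.94 FPKM, with a log2 fold change of −0.43.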
